A study of Ovis aries with 3 samples.

Results

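Expression was examined for 4 sheep transcripts of glycan chain synthesis in the duodenum, cecum and proximal colon. ST6GALNAC6 (XM_012162335.1) and ST3GAL6 (XR_001044475.1) encode sialyltransferases. B3GNT7 (XM_004004999.2) was listed by the study for keratan sulfate synthesis, and XM_004008584.2 for the lacto and neolacto series of glycolipids. XM_004008584.2 matched no gene symbol in the tables used and is called here by its identifier. The 4 transcripts were taken by these identifiers from 83089 transcripts in the files, and they hold 23 of 903107 exon rows. RPKM, the reads of an exon scaled to its length and to the read total of the library, was 1 or more in 1 region or more for all 23 exons. The files give positions without a chromosome or a genome build, so positions are given below as start and end only.

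Each region was represented by 1 library of mucosal epithelial tissue, made from RNA pooled over 3 small-tailed Han ewes aged 11 months. No treatment or genotype differed between the libraries, and all 3 came from the same breed. No library had a replicate, so every test below compares 2 libraries and not the regions, and every interval covers counting error only. The Texel libraries with which the study compared these sheep were not analysed here.

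Sialyltransferases move sialic acid from an activated donor onto the end of a glycan chain, in the Golgi apparatus. ST3GAL enzymes add it to galactose, and ST6GALNAC enzymes to N-acetylgalactosamine in a chain. Keratan sulfate and the neolacto glycolipids share a core built by alternate addition of N-acetylglucosamine and galactose. The B3GNT family adds the first of these sugars and the B4GALT family the second. In the intestine such chains make up much of the sugar coat on mucins and on the apical surface of epithelial cells, and the terminal sugars can serve as receptors or food for gut bacteria.

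The file headers gave read totals of 50832279 (duodenum), 46311533 (cecum) and 53827214 (colon). The labelled tissue was checked against defining markers, of which some could be matched by symbol. EPCAM, a marker of epithelium, was at RPKM 582, 550.3 and 596 in the duodenum, cecum and colon. The 4 matched of 6 markers of small-intestinal absorptive cells summed to RPKM 1563, 3.91 and 3.65 in the same order of regions. HOXB13, a gene of the distal gut, was at 0, 0.0562 and 7.86. The 3 libraries also held smooth muscle RNA, since 3 matched of 4 markers summed to 589, 2953 and 2077. In bulk tissue, fewer cells of a type and less RNA per cell cannot be told apart.

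All 23 exons of the 4 transcripts had their lowest RPKM in the duodenal library. An exon was called at a false discovery rate (FDR, Audic-Claverie test on read counts, Benjamini-Hochberg over all exons tested) below 0.001 and a fold of at least 2. In the colon against the duodenum 23 of 23 exons were called higher, beside 7.51% of the 232819 exons tested, and 0 lower, beside 5.97%. In the cecum against the duodenum 11 of 23 were called higher, beside 8.37%, and 0 were called lower, beside 5.55%. The 11 include exon 2 of B3GNT7, which was below RPKM 1 in both of these libraries. Over the 23 exons the median log2 ratio to the duodenum was 1.70 (cecum) and 2.79 (colon), where the exons tested as a whole had medians of 0.04 and 0.01. In the cecum against the colon 11 of 23 exons were called higher in the colon, beside 2.46% of all exons tested, and 0 were called higher in the cecum, beside 2.34%. The 4 transcripts differed in how the 2 large-intestinal libraries stood to each other. ST6GALNAC6 and XM_004008584.2 were high in both, while B3GNT7 was high in the colon library alone. ST3GAL6 differed by smaller factors. The 4 transcripts were chosen with earlier results of these data known. The counts and medians above are therefore not independent of that choice and are no evidence of a direction. Exons of 1 transcript share RNA molecules, so the 23 exons are not 23 independent observations. Of the 23, 19 had the same start, end and reads in at least 1 other transcript, and 4 had not.

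**Figure D1:**
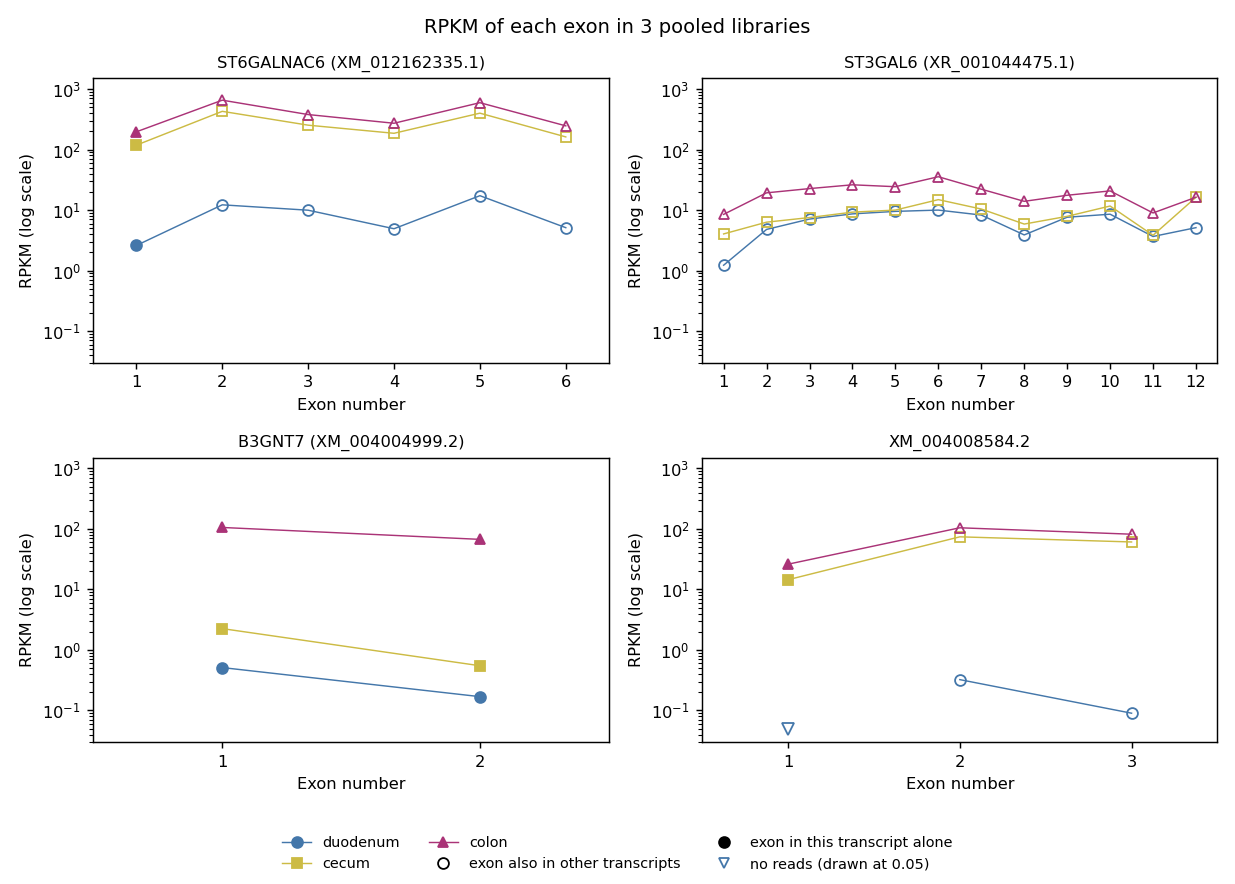
RPKM of each exon (log scale) against exon number for the 4 transcripts, with 1 point per pooled library; filled points mark exons found in 1 transcript alone and open points exons shared with others. The colon and cecum points of ST6GALNAC6 and XM_004008584.2 run together far above the duodenum, whereas the cecum points of B3GNT7 lie nearer to the duodenum, at RPKM 2.25 and 0.548 against 106 and 67.2 in the colon.

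ST6GALNAC6 was the most abundant of the 4 transcripts in the cecum and colon. Its RPKM in the duodenum, cecum and colon was 6.34, 198 and 300.1, from 601, 17137 and 30140 reads over 6 exons. Transfer of sialic acid to gangliosides and to Lewis-type chains is the known activity of this enzyme. The log2 ratio was 4.97 for cecum over duodenum (95% exact interval 4.85 to 5.09), or 31.3-fold. For colon over duodenum it was 5.56 (5.45 to 5.68), or 47.3-fold. Both ratios were called. Of the 58311 transcripts tested, 11.5% were called higher and 6.23% lower in the cecum than in the duodenum, and 9.35% higher and 6.88% lower in the colon. The cecum over colon ratio was -0.60 (-0.62 to -0.57), which did not reach a fold of 2. Of all transcripts, 2.83% were called higher in the cecum of the pair, and 2.87% in the colon.

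The ratio was of similar size along the transcript, which spans positions 8238443 to 8249950. Each of the 6 exons was called higher in the cecum (23.1-fold to 45.5-fold) and in the colon (34.4-fold to 75.6-fold) than in the duodenum. Exon 1 (189 bases, RPKM 2.60, 118 and 197) had the lowest RPKM in all 3 libraries. Exon 2 (89 bases) had the highest RPKM in the cecum and colon, at 12.2, 429 and 656. Exon 5 (109 bases) had the highest in the duodenum, at 17.3, 400.2 and 596. Exon 3 was at 9.96, 253 and 379, exon 4 at 4.92, 186 and 272, and exon 6, with 890 bases the longest, at 5.12, 162 and 247. None of the 6 exons was called between cecum and colon, where log2 ratios ran from -0.73 to -0.55. Of all exons tested, 2.34% were called higher in the cecum of this pair and 2.46% in the colon.

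Reads of ST6GALNAC6 cannot be given to this transcript alone. Exons 2 to 6 were also listed for 5 to 12 other transcripts, and exon 1, listed for this transcript only, was overlapped by 3 other exons. The locus, taken as all transcripts joined by an identical exon, held 13 transcripts and 21 distinct exons. All 21 were called higher in the cecum than in the duodenum, beside 8.37% of all exons tested, with log2 ratios from 2.59 to 6.46. All were also called higher in the colon than in the duodenum, beside 7.51%. In the colon against the cecum 2 of 21 were called higher, beside 2.46%. These 2 start at positions 8232250 and 8232252 and both end at 8233261, so they overlap. The first had RPKM 0.254, 1.54 and 3.45. Several of the 21 exons overlap and can count the same reads. Over the locus the RPKM was 2.86, 96.2 and 149.6, with log2 ratios of 5.07 and 5.71 against the duodenum. These ranked 49th and 50th from the top among 7445 loci with an RPKM of at least 10 in a region.

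ST3GAL6 was higher in the colon library by smaller factors. In the order used above its RPKM was 5.12, 6.99 and 14.5, from 642, 800 and 1929 reads over 12 exons. The enzyme caps galactose at the end of neolacto-type chains and takes part in making selectin ligands. XR is the RefSeq prefix of a predicted non-coding transcript, so the record itself is not a coding model of the gene. The log2 ratio for colon over duodenum was 1.50 (1.38 to 1.64), or 2.84-fold, at FDR 7.68e-132, and was called. The cecum and duodenum were closer, at 0.45 (0.30 to 0.60), or 1.37-fold, which did not reach a fold of 2. Between cecum and colon the ratio was -1.05 (-1.17 to -0.93), 2.08-fold higher in the colon and just past the fold of 2. That call was lost over all distinct exons of the locus, where the log2 ratio was -0.80. With edgeR's exact test at an assumed coefficient of variation of 0.4, none of the 12 exons was called in any of the 3 comparisons. The share of all exons called at that setting is not given here.

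The exons of ST3GAL6 did not all follow the sum. All 12 were called higher in the colon than in the duodenum, beside 7.51% of all exons tested, with log2 ratios from 1.21 to 2.79. In exons 2 to 11 the cecum over duodenum ratio was 1.03-fold to 1.51-fold and was not called, and its interval included a log2 ratio of 0 in these 10 of 12 exons. Over the same exons the colon over cecum ratio was 1.78-fold to 3.05-fold. Exon 12 (207 bases, positions 161575541 to 161575747) stood apart, with RPKM 5.13, 16.3 and 16.3. Its log2 ratio for cecum over duodenum was 1.67 (1.21 to 2.14), the 1 call among the 12, and for cecum over colon it was -0.00 (-0.32 to 0.31). Exon 1 (155 bases) had RPKM 1.23, 4.04 and 8.49 from 9.67, 29.0 and 70.9 reads, and its cecum ratio was not called. In the comparison of cecum and colon, 9 of 12 exons were called higher in the colon, beside 2.46% of all exons tested. Exons 1, 10 and 12 were not.

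**Figure D2:**
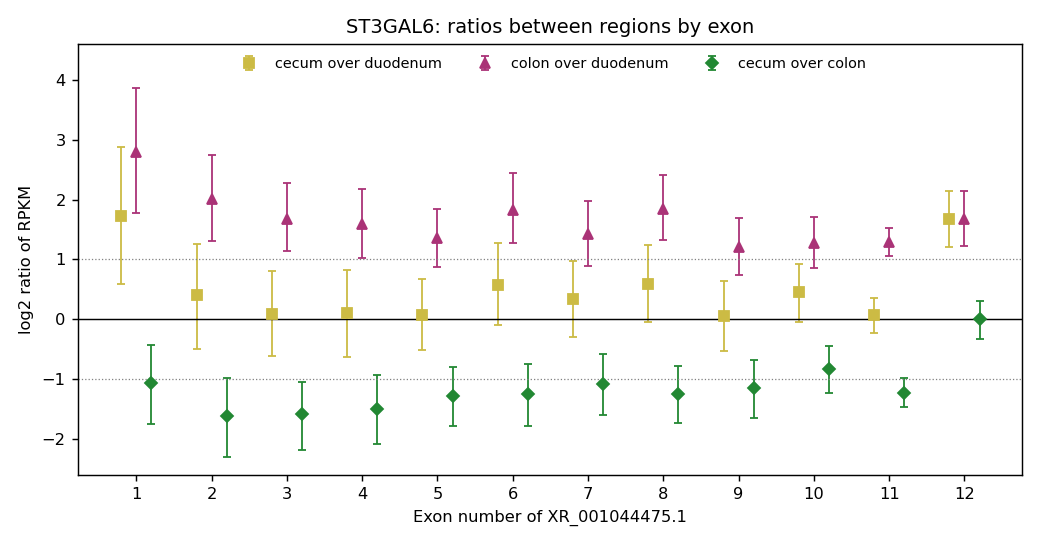
Log2 ratio of RPKM for each of the 12 exons of ST3GAL6 in the 3 comparisons of libraries, with exact 95% intervals for counting error; dotted lines mark a fold of 2. Cecum over duodenum lies near 0 in exons 2 to 11 and at 1.67 in exon 12, where cecum over colon is -0.00.

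Values around the end of ST3GAL6 were read from the other exons of its locus, which held 19 transcripts and 38 distinct exons. A longer exon that starts with exon 12 and runs for 945 bases to position 161576485 had RPKM 2.75, 5.26 and 7.39. Its cecum over duodenum ratio of 0.93 was not called. An exon of 5 bases within exon 12, from the same start to position 161575545, had 21.2, 56.2 and 71.6 reads. It was called higher in the cecum than in the duodenum, at a log2 ratio of 1.54. Its cecum over colon ratio of -0.13 was not called. A pair of overlapping exons further along, which start at position 161581448 and end at 161582068 and 161582253, had RPKM 0.509, 2.68 and 1.25 and RPKM 0.441, 2.21 and 1.08. Both were called higher in the cecum than in the duodenum and than in the colon. They were the 2 of 24 tested exons of the locus called higher in the cecum than in the colon, beside 2.34% of all exons tested. In the other direction 14 of the 24 were called higher in the colon, beside 2.46%. Several of the 24 exons overlap and can count the same reads. Each exon of ST3GAL6 was also listed for 1 to 18 other transcripts, so which transcript gave these reads was not tested.

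B3GNT7 had the largest difference between the 2 large-intestinal libraries. It stood at RPKM 0.174 (duodenum), 0.570 (cecum) and 67.7 (colon), from 52.2, 156 and 21556 reads. B3GNT7 adds N-acetylglucosamine to growing chains and is known for elongating the keratan sulfate backbone. The log2 ratio for colon over duodenum was 8.61 (8.22 to 9.03), or 390-fold, and 5.87 with 1 added to every RPKM. For cecum over colon it was -6.89 (-7.13 to -6.67), which is 119-fold higher in the colon, and -5.45 with 1 added. Both were called. Among 7445 loci with an RPKM of at least 10 in a region, the colon over duodenum ratio was the 24th highest and the cecum over colon ratio the 13th lowest. The cecum was also called higher than the duodenum, at 1.72 (1.26 to 2.20) or 3.28-fold, although both libraries were below RPKM 1. With 1 added to every RPKM, that ratio was 0.42 and was not called.

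Both exons of B3GNT7 were found in this transcript alone, unlike most exons of the other 3 transcripts. Overlap was looked for only within a locus. As this locus held 1 transcript, overlap with exons of other loci was not tested. Exon 1 (77 bases) had RPKM 0.511, 2.25 and 106 from 2, 8.03 and 438 reads. Exon 2 (5837 bases, positions 232260034 to 232265870) had RPKM 0.169, 0.548 and 67.2. Reads covered 45.5%, 67.7% and 100% of exon 2. Both exons were called higher in the colon than in the duodenum, beside 7.51% of all exons tested, and than in the cecum, beside 2.46%. Between cecum and duodenum, exon 2 was called, and exon 1, with the fewer reads, was not.

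XM_004008584.2 was close to absent from the duodenal library and abundant in both large-intestinal libraries. The RPKM of the transcript was 0.0935, 55.3 and 75.6, from 8.50, 4579 and 7271 reads over 3 exons. A count of 3 reads, the level that 0 reads would allow, corresponds to RPKM 0.0330 for this transcript in the duodenum. The log2 ratio was 9.21 (8.32 to 10.51) for cecum over duodenum, or 591-fold, and 9.66 (8.77 to 10.96) for colon over duodenum, or 808-fold. Both were called, and their size rests on few duodenal reads. With 1 added to every RPKM they were 5.69 and 6.13. The cecum over colon ratio was -0.45 (-0.50 to -0.40) and did not reach a fold of 2.

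All 3 exons of XM_004008584.2, between positions 16111580 and 16117773, were called higher in both large-intestinal libraries than in the duodenum. Exon 1 (250 bases) had RPKM 14.5 in the cecum and 26.1 in the colon and was not listed for the duodenum, where the files list exons from 1 read upward. With the duodenal count set at 3 reads, it was 61.3-fold higher in the cecum and 111-fold higher in the colon. These values take the cecal and colonic counts as fixed. The exact intervals of the log2 ratio reached lower, to 5.63 (cecum) and 6.49 (colon). Exon 2 (122 bases) had 2 reads in the duodenum and RPKM 0.323, 74.0 and 104, with a cecum over duodenum log2 ratio of 7.84 (5.98 to 10.89). Exon 3 (1416 bases) had RPKM 0.090, 60.9 and 81.8 and carried most of the reads. Exon 1 was listed for this transcript only but overlapped another exon, while exons 2 and 3 were shared, exon 3 being listed for all 9 transcripts of the locus. Over the 12 distinct exons of the locus the RPKM was 0.0711, 13.6 and 18.5. These log2 ratios of 7.57 and 8.03 against the duodenum ranked 21st and 27th from the top among the 7445 loci.

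**Figure D3:**
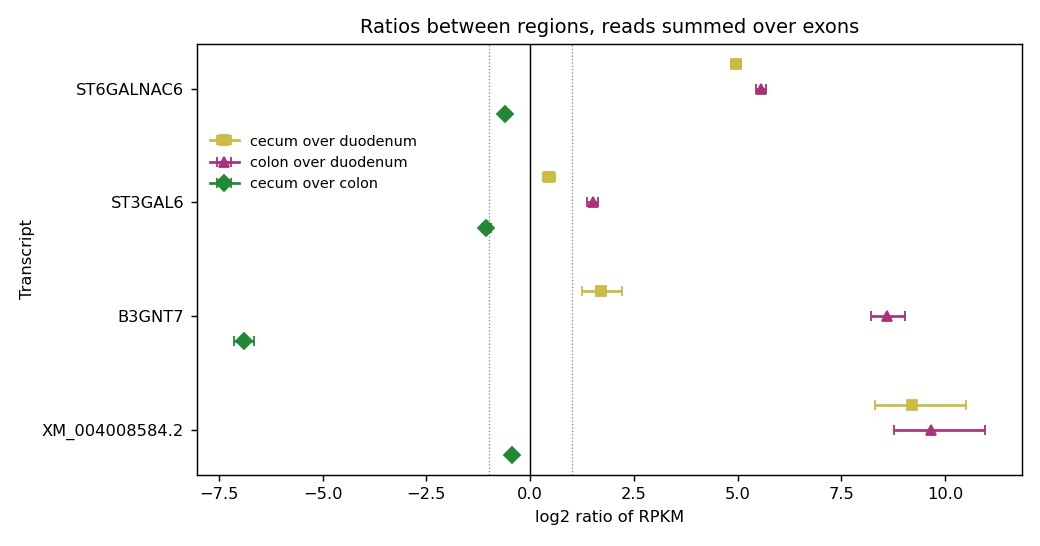
Log2 ratio of RPKM between libraries for the 4 transcripts, with reads summed over exons and exact 95% intervals for counting error; dotted lines mark a fold of 2. All 8 ratios over the duodenum are above 0, and B3GNT7 at -6.89 lies farthest from 0 for cecum over colon.

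Of 20 listed sialyltransferase genes, 8 could be matched by symbol and 6 had a locus RPKM of at least 1 in a region. In the cecum against the duodenum 3 of the 6 loci were called higher (ST3GAL4, ST6GALNAC4 and ST6GALNAC6), beside 11.2% of the 16373 loci tested. In the colon against the duodenum 4 of 6 were called higher, the same 3 and ST3GAL6, beside 9.14%. No sialyltransferase was called lower against the duodenum, beside 6.66% and 7.32% of loci, and none was called between cecum and colon, beside 2.91% higher and 3.03% lower. Over the 6 the median log2 ratio to the duodenum was 0.97 (cecum) and 1.73 (colon), where all loci tested had 0.05 and -0.02. With 2 members of the list chosen for this description, its count is not independent of the choice. With edgeR's exact test at an assumed coefficient of variation of 0.4, and also at a fold of at least 4, ST6GALNAC6 was the 1 sialyltransferase called against the duodenum, in both the cecum and the colon. The shares of all loci called at those settings are not given here.

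ST6GALNAC4, which adds sialic acid to sialylated mucin-type cores, had locus RPKM 25.8, 62.9 and 103. It had the highest locus RPKM of the 8 in the duodenum and was second to ST6GALNAC6 in the other libraries. Its log2 ratios over the duodenum were 1.29 in the cecum and 1.998 in the colon, against 5.07 and 5.71 for ST6GALNAC6. ST3GAL4, which caps galactose, had RPKM 2.21, 8.22 and 8.82, with log2 ratios of 1.90 and 1.997. ST6GAL1, the sialyltransferase of N-linked chains, was at 10.8, 8.68 and 9.62 and was not called. ST8SIA4, a polysialyltransferase, was at 3.25, 3.99 and 2.88 and was not called. ST6GALNAC3 (0.289, 0.495 and 0.260) and ST8SIA1 (0.0699, 0.168 and 0.893), a ganglioside sialyltransferase, remained below RPKM 1 in every library and were not tested. Without that filter ST8SIA1 was called higher in the colon than in the cecum, and lower in the duodenum than in either.

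**Figure D4:**
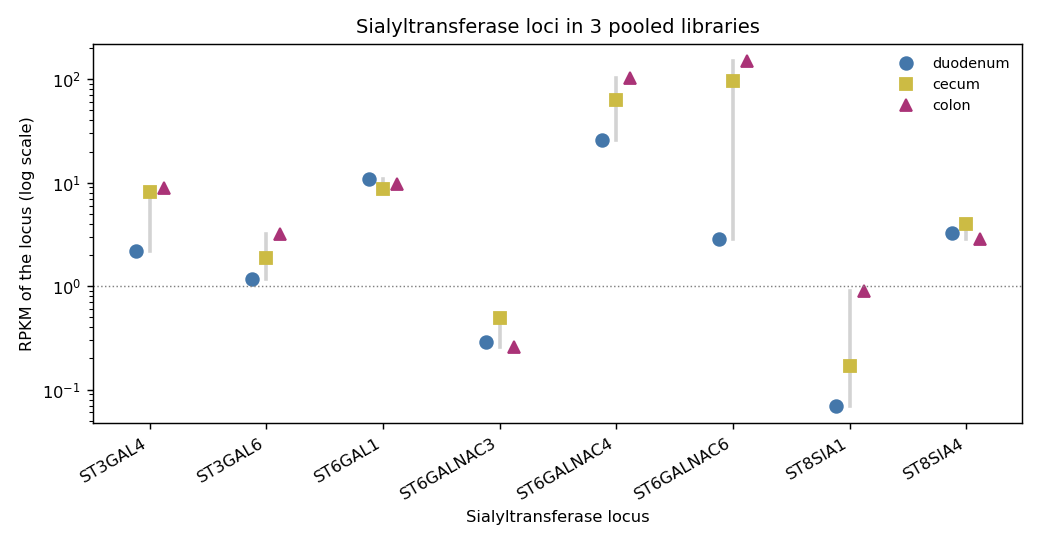
Locus RPKM (log scale) of the 8 matched sialyltransferases in the 3 pooled libraries; grey lines join the lowest and highest value, and the dotted line marks RPKM 1. ST6GALNAC6 spans 2.86 to 149.6, the widest range of the 8, and ST6GAL1 spans 8.68 to 10.8.

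Of 15 keratan sulfate genes, 6 were matched and all 6 were tested. B3GNT7 and CHST4 were called higher in the cecum than in the duodenum, beside 11.2% of all loci, and B3GNT7, CHST4 and B4GALT1 in the colon, beside 9.14%. The same 3 were called higher in the colon than in the cecum, beside 3.03%. CHST4, a sulfotransferase acting on N-acetylglucosamine, had RPKM 14.6, 31.3 and 66.8. B4GALT1, a galactosyltransferase that alternates with B3GNT enzymes in chain extension, had 31.3, 52.7 and 125. B4GALT3 of the same family was at 20.8, 20.6 and 20.9 and was not called. B3GNT2, another enzyme of chain extension, was at 9.68, 12.4 and 12.8, and B4GAT1 at 4.88, 6.84 and 6.52, and neither was called. The 6 loci had median log2 ratios of 0.62 (cecum to duodenum), 1.21 (colon to duodenum) and -0.57 (cecum to colon), where all loci had 0.05, -0.02 and 0.09. B3GNT7, a member of this list, was chosen for description, so this count too is not independent of the choice. In the duodenum and cecum B3GNT7 was below RPKM 1, so it was tested through its colon value. Its cecum over duodenum call was lost with 1 added to every RPKM.

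Of 25 genes of the lacto and neolacto series, 8 were matched and 7 were tested. B3GALT2 and ST3GAL4 were called higher in the cecum than in the duodenum, beside 11.2% of all loci. B3GALT2, B4GALT1, ST3GAL4 and ST3GAL6 were called higher in the colon, beside 9.14%. B3GALT2, a galactosyltransferase of the lacto series, had RPKM 0.864, 2.84 and 1.73. FUT1, which adds the fucose of the H antigen, ran the other way at 1.24, 0.316 and 0.0560, from 120.0, 28.0 and 5.76 reads. It was called lower in both large-intestinal libraries, beside 6.66% (cecum) and 7.32% (colon) of all loci. It was also called higher in the cecum than in the colon, beside 2.91%. Both large-intestinal libraries were below RPKM 1, so FUT1 was tested through its duodenal value. The median log2 ratios of the 7, in the same order of comparisons, were 0.66, 1.00 and -0.04. The list's 7 tested loci do not include XM_004008584.2, which has no symbol. They include ST3GAL6, which was chosen for description, so this count too is not independent of the choice.

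Beyond the chains of the 4 transcripts, 34 genes of mucin O-glycan chains gave 7 matched and 5 tested loci. GAL3ST4, a sulfotransferase acting on galactose, was called higher in the cecum than in the duodenum, at RPKM 1.23, 2.93 and 2.40. GALNT5 (7.72, 10.9 and 16.3) and GALNT6 (8.32, 15.9 and 33.5), which start O-glycan chains, were called higher in the colon than in the duodenum, and GALNT6 higher in the colon than in the cecum. GALNT4 was at 12.3, 10.8 and 11.9, and C1GALT1C1, the chaperone of core chain synthesis, at 10.7, 11.4 and 10.1, and neither was called. Against the duodenum, 1 of the 5 was called higher in the cecum, beside 11.2% of all loci, and 2 in the colon, beside 9.14%. Between the large-intestinal libraries 1 was called higher in the colon, beside 3.03%. Medians of the log2 ratio to the duodenum were 0.50 (cecum) and 0.97 (colon). Of 15 mucin genes 1 was matched, MUC15, and it was not tested.

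Genes that make, carry or remove sialic acid were matched for 8 of 14, and all 8 were tested. NANS, which makes sialic acid phosphate, was called higher in both large-intestinal libraries than in the duodenum, at RPKM 104, 223 and 232. GNE, the first enzyme of sialic acid synthesis, had 8.91, 17.5 and 35.9 and was called higher in the colon than in either other library. SLC35A1, which carries the activated sugar into the Golgi, was at 31.0, 37.0 and 61.2, and its colon over duodenum ratio of 0.98 did not reach a fold of 2. NPL, which breaks sialic acid down, had 2.05, 2.65 and 1.25 and was called higher in the cecum than in the colon. The lysosomal exporter SLC17A5 was at 20.2, 26.9 and 39.6, the sialidases NEU1 at 8.07, 11.8 and 10.9 and NEU3 at 4.58, 3.41 and 4.39, and the esterase SIAE at 7.77, 6.61 and 7.90, and none of these was called. Against the duodenum, 1 of the 8 was called higher in the cecum, beside 11.2% of all loci, a like share. In the colon 2 of the 8 were called higher than in the duodenum, beside 9.14%. Between the large-intestinal libraries 1 was called higher in the cecum, beside 2.91%, and 1 in the colon, beside 3.03%. Medians of the log2 ratio to the duodenum were 0.39 (cecum) and 0.70 (colon).

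Over all these lists 110 genes were named, 32 were matched and 27 were tested. Of the 27, 8 were called higher in the cecum than in the duodenum and 1 lower, beside 11.2% and 6.66% of all loci tested. The 8 include B3GNT7, which was below RPKM 1 in both of these libraries. In the colon 12 were called higher than in the duodenum and 1 lower, beside 9.14% and 7.32%. Between the large-intestinal libraries 2 were called for the cecum and 5 for the colon as the higher region, beside 2.91% and 3.03%. The 2 include FUT1, which was below RPKM 1 in both large-intestinal libraries. Without ST6GALNAC6, ST3GAL6 and B3GNT7, 24 loci remained. Against the duodenum 6 of them were higher and 1 lower in the cecum, beside the same 11.2% and 6.66%, and 9 were higher and 1 lower in the colon, beside 9.14% and 7.32%. Their medians of that ratio were 0.45 (cecum) and 0.70 (colon). Both comparisons use the same duodenal library.

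**Figure D5:**
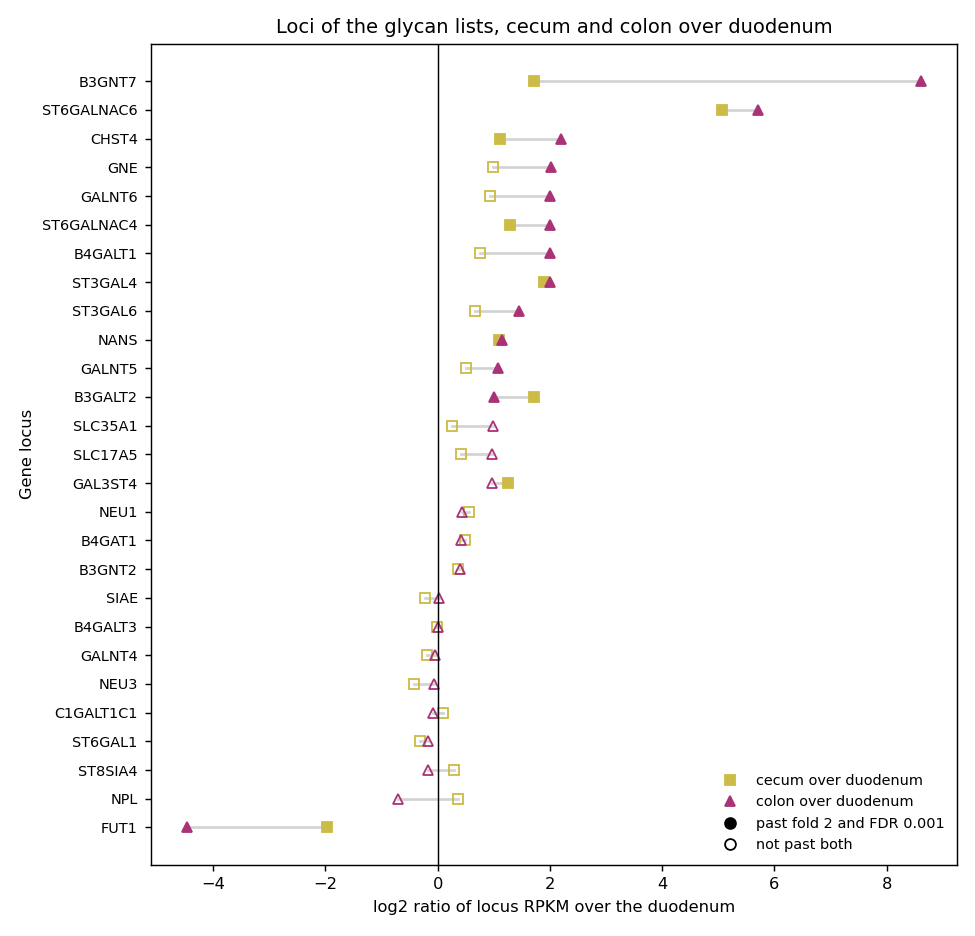
Log2 ratio of locus RPKM over the duodenum in the cecum and the colon for the 27 tested loci of the glycan lists, with filled points past a fold of 2 and an FDR of 0.001; the points of a locus share its duodenal library. B3GNT7 at 8.61 and ST6GALNAC6 at 5.71 have the highest colon ratios, and FUT1 at -4.46 the lowest.

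The study's own transcript lists for the 2 pathways were counted next. They were chosen on these samples and are not independent evidence of a direction. Of 13 keratan sulfate transcripts 6 were in the files by identifier, B3GNT7 among them. In the cecum 2 of the 6 were called higher than in the duodenum, beside 11.5% of all transcripts tested, and in the colon 5 of 6, beside 9.35%. The 2 include B3GNT7, which was below RPKM 1 in the duodenum and the cecum. Between the large-intestinal libraries 3 were called higher in the colon, beside 2.87%. After B3GNT7, the largest colon ratio was that of XM_012183519.1, with RPKM 9.40, 12.6 and 55.2. Of 18 lacto and neolacto transcripts 11 were found, at 9 loci, including XM_004008584.2 and ST3GAL6. Against the duodenum, 7 of the 11 were called higher in the cecal library, beside 11.5% of all transcripts, and 9 in the colonic one, beside 9.35%. Between cecum and colon, 1 was called higher in the cecum, beside 2.83%, and 3 in the colon, beside 2.87%. Some transcripts are in both pathway lists, so the counts of the lists are not separate. XM_004008584.2 had the highest ratios over the duodenum of the 11, followed by XM_012178032.1 of the same locus at RPKM 0.104, 46.2 and 62.1. The next were XM_004003898.2 at 0.391, 4.58 and 10.03 and XM_012179097.1 at 2.92, 15.9 and 64.4.

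Named loci with a pattern most like each of the 4 were found by the distance between their pairs of log2 ratios over the duodenum, among 3023 loci with a symbol and an RPKM of at least 10 in a region. With 3 libraries, such a distance describes a pattern over 3 values only. Nearest to ST6GALNAC6 were FOXD2 (distance 0.42, RPKM 0.304, 13.6 and 15.0), SPTSSB (0.57) and DUOX2 (0.60), an oxidase of the mucosal surface. Nearest to ST3GAL6 were SOAT1 (0.05), CDKN1A (0.15) and ARHGEF37 (0.18). For B3GNT7 the nearest were farther off: CRISP2 (1.37, RPKM 0.141, 0.509 and 141), KLK1 (2.01) and TFF2 (2.49), a peptide secreted with mucus. Nearest to XM_004008584.2 were LOC101114032 (0.81), MSMB (0.87, RPKM 0.654, 224 and 149) and LOC101108654 (1.20).

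Markers of several cell types also differed between the libraries. The 2 matched of 7 goblet cell markers, AGR2 and TFF3, summed to RPKM 3972, 4425 and 7252 in the duodenal, cecal and colonic library. The 2 differed, with AGR2 at 991, 1237 and 3909 and called higher in the colon than in either other library. TFF3 was at 2981, 3188 and 3343 and was not called. TFF2, the 1 matched of 2 markers of deep mucous cells and Brunner glands, was at 1470, 2060 and 127220, high in the colon library as B3GNT7 was. The 2 matched of 4 markers of colonic absorptive cells summed to 5.78, 25.9 and 35.4, and the 2 matched of 4 fibroblast markers to 214, 812 and 388. Of 5 markers of lymphocytes and plasma cells 3 were matched and summed to 6762, 3744 and 747. The plasma cell gene JCHAIN made up most of that sum, at 6626, 3659 and 663, while CD3E of T cells was at 111, 68.4 and 56.9 and CD79A of B cells at 24.9, 16.6 and 27.5. The enteroendocrine marker CHGA was at 496, 127 and 143. The endothelial marker PECAM1 was at 19.3, 47.7 and 28.5, the macrophage marker CD68 at 19.4, 33.8 and 23.8, and 2 glial markers summed to 4.37, 12.7 and 9.76. HBB, the marker of erythrocytes, was not matched. The part of these differences in the results for the 4 transcripts was not tested.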

How the data were processed

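RNA of intestinal mucosal epithelial tissue was sequenced as 1 library per region. For each exon of each annotated transcript, the authors deposited an expected count of reads (mostly not whole), the RPKM made from it, and the percent of the exon covered by reads. The paper names Bowtie2 and RSEM with the sheep genome Oar_v4.0, and the submitters' processing notes name BWA and Bowtie 0.12.2. The files name no build, and their transcript versions and positions differ from those of the paper's supplement, so whether Oar_v4.0 applies to them is uncertain.

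Counts were rounded and pairs of libraries compared with the two-sided Audic-Claverie test (Python 3.11.15, scipy 1.17.1), as in the study's methods. Benjamini-Hochberg adjustment covered every exon, transcript or locus that reached RPKM 1 in a library. Exons below 1 read are not listed and were taken as 0. An RPKM of 0 was set to 0.001 for ratios. Intervals are 95% Clopper-Pearson. Loci join transcripts that share an exon with identical position and reads; overlapping exons can count a read more than once. Symbols, matched for 10.6% of transcripts, came mostly from a RefSeq table of the assembly ARS-UI_Ramb_v3.0, used for names only. edgeR 4.0.16, with an assumed coefficient of variation of 0.4, was an alternative. The scripts were tested on simulated data.

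The 4 transcripts, the gene lists and the markers were chosen with earlier results of these data known. Named genes are the 4 transcripts, every tested sialyltransferase, up to 8 tested genes of each other list by the size of the ratio over the duodenum, and the 3 nearest named loci of each transcript. FOXD2 and other neighbours come from the last rule. ST6GALNAC3, ST8SIA1, MUC15, exons at the end of ST3GAL6 and 4 transcripts of the study's lists were named after their values were seen.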

Additional observations from a re-analysis of the deposited data

How the results depend on the processing

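Each region has 1 pooled library, so no library could be left out and no variation between animals was measured. No paired analysis was possible because each group holds 1 library. With an assumed coefficient of variation of 0.4 (edgeR exact test), all exons of ST6GALNAC6 and XM_004008584.2 were still called higher in both large-intestinal libraries than in the duodenum, and both of B3GNT7 in the colon. None of the 12 ST3GAL6 exons was called in any comparison. Under this setting the exons called higher in the colon than in the duodenum went from 23 to 11, and those higher in the colon than in the cecum from 11 to 2. At a fold of at least 4 they were 13 and 2. Among the 4 exons shared with no other transcript, against the duodenum 3 were called higher in the cecum, 4 were higher in the colon, and 2 were higher in the colon than in the cecum, since fewer exons were counted. The shares over all exons are given for the main setting only. Whether exons in general lost calls to a like extent under these settings was not tested.

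The ST3GAL6 call between cecum and colon (log2 -1.05) was lost with 1 added to every RPKM (-0.96), without the exon with the most reads (-0.99) and over all exons of the locus (-0.80). The B3GNT7 call between cecum and duodenum (1.72) was lost with 1 added (0.42) and without the exon with the most reads (2.14). Its RPKM in the duodenum and cecum, 0.174 and 0.570, was below the 1 added. Without exon 2 the ratio rested on exon 1, with 2 duodenal and 8.03 cecal reads and an interval of -0.19 to 5.41. The cause was not tested. The other 10 ratios kept their direction and side of the threshold under every alternative run for them, among them median-ratio and TMM scaling; edgeR was run for exons and loci only. With 1 added to every RPKM their size moved, for XM_004008584.2 from 9.21 to 5.69 (cecum) and from 9.66 to 6.13 (colon) over duodenum, and for B3GNT7 from 8.61 to 5.87 (colon over duodenum) and from -6.89 to -5.45 (cecum over colon). Exon 1 of XM_004008584.2 alone gives 13.8 and 14.7, which depend on the value set for 0.

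For the 27 loci of the glycan lists, the 8 higher in the cecum than in the duodenum became 5 at RPKM of at least 10, 1 at a fold of 4 and 1 with edgeR. The 12 higher in the colon became 5 at a fold of 4 and 2 with edgeR. The 1 lower in the cecum became 0 with 1 added, at RPKM of at least 10, at a fold of 4 and with edgeR, and 2 without a filter. The 1 lower in the colon became 0 at RPKM of at least 10 and with edgeR, and 2 without a filter. The 2 higher in the cecum than in the colon became 1 under median-ratio scaling, without the 10 loci with the most reads, at a fold of 4 and with only the most-read transcript (an alternative chosen after seeing the data), and 0 with 1 added, at RPKM of at least 10 and with edgeR. The 5 higher in the colon than in the cecum became 1 at a fold of 4 and 1 with edgeR. The cause was not tested. Of the 6 sialyltransferase loci, the 3 higher in the cecum than in the duodenum became 1 at a fold of 4 and with edgeR, and the 4 higher in the colon became 2 at RPKM of at least 10 and 1 at a fold of 4 and with edgeR. The 0 higher in the colon than in the cecum became 1 (ST8SIA1) without a filter and without the 10 loci with the most reads, and 2 (ST8SIA1 and ST3GAL6) with only the most-read transcript. With edgeR the keratan sulfate loci higher in the colon than in the duodenum went from 3 to 1, and those of the lacto and neolacto series from 4 to 0. The latter were 2 with 1 added, 1 at RPKM of at least 10 and 0 at a fold of 4. The shares over all loci are given for the main setting only, so whether loci in general lost calls to a like extent was not tested.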
